A study of Mus musculus with 16 samples.

Results

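The Nr4a family consists of the 3 nuclear receptors Nr4a1, Nr4a2 and Nr4a3. They were taken by gene symbol from the 22180 genes measured in mouse hippocampus, and all 3 were found. Each was read by 1 probe set, the array's group of probes for a transcript, and no probe set was shared with another gene. The question was how these genes stood after status epilepticus (SE), a prolonged seizure, and whether loss of astrocytic Dio2 altered them. Dio2 encodes the type 2 deiodinase, which turns the prohormone thyroxine into active T3.

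Hippocampal RNA was hybridised to 16 Affymetrix arrays, 1 mouse per array per the sample titles, in 4 groups of 4. Astro-D2KO mice carried floxed Dio2 with a glial Cre and were given SE or saline. Control mice had wild-type Dio2 with the same glial Cre and were given SE or saline. All were C57BL/6 mice aged 8 to 10 weeks, and all first received lithium chloride at 10 mEq/kg. Pilocarpine at 65 mg/kg, a muscarinic agonist that induces SE, or saline followed 18 h later. Neither the promoter driving Cre, nor the sex of the mice, nor the delay between pilocarpine and dissection was given in the sources. Every SE mouse and no saline mouse received pilocarpine, so effects of the drug and of the seizure cannot be told apart. Levels are log2 values from RMA, a method that removes background, brings all arrays to one distribution and combines the probes of each set. One unit is therefore a 2-fold step.

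Nr4a receptors are called orphan receptors because their ligand pocket is filled by bulky side chains, so their activity is set mainly by how much protein is made and how it is modified. In neurons they are immediate early genes: calcium and cyclic AMP act through CREB bound at cyclic AMP response elements (CREs), and through MEF2 and SRF, to switch on their transcription within minutes of firing. The proteins bind DNA alone at a site called the NBRE or as dimers, and in hippocampus they are known for their part in long-term memory. Nr4a1 (Nur77) and Nr4a2 (Nurr1) can pair with the retinoid X receptor, whereas Nr4a3 (Nor1) does not.

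The promoters are shown because CREs in them are the best known route from firing to Nr4a transcription. Sequences are from RefSeq on build GRCm38.p6 and cover 250 bases before to 50 bases after the start of transcription in the table, read 5′ to 3′ along the gene. Nr4a1 lies on chromosome 15 (gene at chr15:101253902-101274795), and its window is chr15:101266596-101266895 on the plus strand. Nr4a2 lies on chromosome 2 (chr2:57106830-57124003), and its window is chr2:57123954-57124253 on the minus strand. Nr4a3 lies on chromosome 4 (chr4:48045078-48086447), and its window is chr4:48045055-48045354 on the plus strand. Capitals mark matches to the CRE core site TGACG (the part of a CRE that one CREB subunit contacts) or its reverse complement CGTCA, and in Nr4a2 also a match to the MEF2 box.
Nr4a1: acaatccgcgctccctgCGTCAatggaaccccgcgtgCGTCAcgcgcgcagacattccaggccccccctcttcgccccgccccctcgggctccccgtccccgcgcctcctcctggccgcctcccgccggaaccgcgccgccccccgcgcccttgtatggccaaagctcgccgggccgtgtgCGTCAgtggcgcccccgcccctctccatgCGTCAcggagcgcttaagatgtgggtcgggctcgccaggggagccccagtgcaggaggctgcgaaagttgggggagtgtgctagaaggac
Nr4a2: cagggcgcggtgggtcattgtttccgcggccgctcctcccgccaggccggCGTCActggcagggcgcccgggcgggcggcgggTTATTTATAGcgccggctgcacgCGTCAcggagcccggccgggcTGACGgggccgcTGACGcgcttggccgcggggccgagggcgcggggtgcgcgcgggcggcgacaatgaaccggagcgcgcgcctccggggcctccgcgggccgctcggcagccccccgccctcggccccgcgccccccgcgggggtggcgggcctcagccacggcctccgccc
Nr4a3: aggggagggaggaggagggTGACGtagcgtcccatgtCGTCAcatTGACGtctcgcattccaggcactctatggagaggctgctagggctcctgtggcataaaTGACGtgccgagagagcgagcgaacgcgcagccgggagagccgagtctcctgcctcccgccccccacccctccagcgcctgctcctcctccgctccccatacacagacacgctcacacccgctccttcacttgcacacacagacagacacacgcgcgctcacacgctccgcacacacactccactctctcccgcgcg

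Each of the 3 windows held 4 CRE core sites. In Nr4a1 they lay between bases -233 and -36, counted back from the start, in Nr4a2 between -200 and -107, and in Nr4a3 between -231 and -143. At least 4 core sites were present in 76 of 32851 promoters of the same length (0.231%), and at least 1 in 20.8%. The windows were rich in G and C, at 72.3%, 81.7% and 64.7% for Nr4a1, Nr4a2 and Nr4a3. Among the 6218 promoters with a GC share at or above that of Nr4a3, 35 (0.563%) held at least 4. The full CRE TGACGTCA, which contains overlapping core sites on both strands, was in none of the 3 windows and in 1.79% of all promoters. The AP-1 site TGACTCA (5.20% of promoters), the NBRE AAAGGTCA (1.51%) and the CArG box bound by SRF (1.63%) were also not matched on either strand. The MEF2 box, matched by 3.19% of promoters, was found in Nr4a2 at bases -167 to -158. A match describes letters in these windows and is not evidence of binding. Only 1 start was searched for each gene, so matches and absences hold for that start. For Nr4a1 and Nr4a3 it lies inside the gene interval given above, not at its edge.

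**Figure D1:**
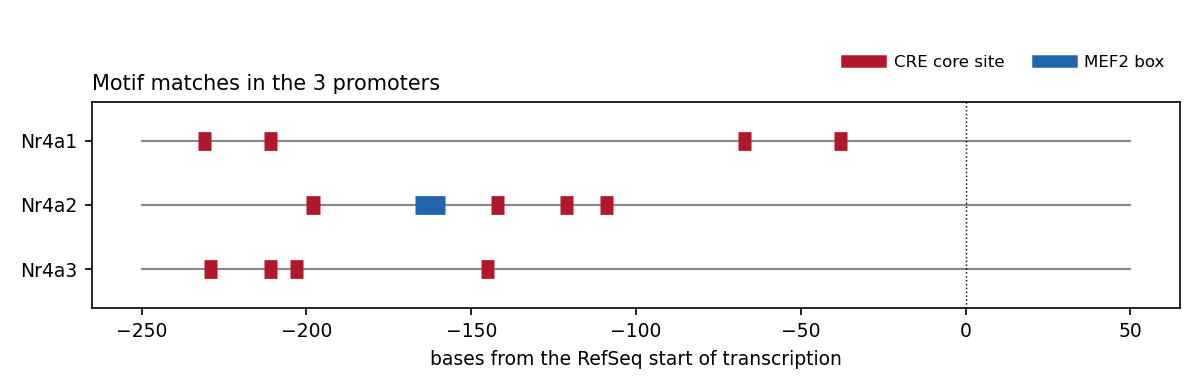
Motif matches in the Nr4a promoters by distance in bases from the RefSeq start (dotted line), one row per gene and colours for the motif. Each row carries 4 CRE core sites, all upstream of the start, and Nr4a2 alone carries a MEF2 box.

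The arrays were closely alike over all genes, with Pearson correlations from 0.972 to 0.994, and no 2 were identical. Dio2, the check of the genotype labels, averaged 6.78 ± 0.23 in Astro-D2KO saline arrays and 8.14 ± 0.19 in control saline arrays (log2, SD, n = 4 each), with no overlap. After SE 2 arrays stood apart from their groups. Dio2 was 8.91 in the array labelled Astro-D2KO SE replicate 1, against a lowest value of 7.03 in that group. In control SE replicate 4, as labelled, Dio2 stood at 7.99, against a highest value of 9.51 in that group. The value of Astro-D2KO SE replicate 1 goes against its label. That of control SE replicate 4 is low for its group but lies within the range of the control saline arrays, 7.87 to 8.28, so it does not contradict the label. Both arrays are kept in their labelled groups, and the main results are also given without them. The probe set may or may not lie in the deleted part of Dio2. Hippocampal markers were present, with list means of 7.07 to 8.62 for 5 dentate granule cell markers and 7.86 to 8.34 for 3 CA1 pyramidal cell markers across the arrays. The mean of 7 choroid plexus markers ranged from 6.03 to 8.15 in SE arrays and from 6.13 to 8.38 in saline arrays. At adjusted p under 0.05, 0 of the 7 were called after SE in either genotype. Over all genes 20.1% were called in Astro-D2KO mice and 22.1% in control mice. The standard error of the change reached 1.22 log2 units, for Ttr. These counts therefore do not show that choroid plexus content was alike after SE and saline.

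All 3 Nr4a genes rose steeply after SE in both genotypes. The rises were 8.00-fold to 10.8-fold in Astro-D2KO mice and 7.33-fold to 8.07-fold in control mice, and every SE array lay above every saline array of either genotype for each gene. Limma, fitted to all genes with 1 mean per group and p-values adjusted by Benjamini-Hochberg over 22180 genes (threshold 0.05), called 3 of 3 members higher in Astro-D2KO mice, where it called 20.1% of all genes in either direction and 7.49% higher. It called 3 of 3 higher in control mice, where it called 22.1% in either direction and 8.42% higher.

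Nr4a1, which can be induced by growth factors as well as by firing, stood at 10.78, 11.22, 11.20 and 11.52 in Astro-D2KO SE arrays (replicates 1 to 4), against 8.04, 7.99, 8.02 and 8.20 in Astro-D2KO saline arrays. In control mice it stood at 11.54, 11.11, 11.50 and 10.46 in SE arrays, against 8.23, 8.08, 8.05 and 8.20 in saline arrays. The saline arrays were nearly level, while the array labelled control SE replicate 4 and the array labelled Astro-D2KO SE replicate 1 were the lowest of their SE groups. The rise was 3.12 ± 0.18 (log2 change with the standard error of the fit, n = 4 per group, 8.67-fold, limma adjusted p = 1.05e-08) in Astro-D2KO mice. In control mice it was 3.01 ± 0.18 (8.07-fold, limma adjusted p = 9.74e-09).

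Nr4a2, which is needed for the development and upkeep of midbrain dopamine neurons and is induced by firing in hippocampus, stood at 11.63, 11.45, 11.76 and 11.63 in Astro-D2KO SE arrays, against 8.04, 7.67, 9.04 and 7.99 in Astro-D2KO saline arrays. In control mice it stood at 11.90, 11.56, 11.82 and 11.37 in SE arrays, against 7.96, 8.62, 8.89 and 9.34 in saline arrays. Here the SE arrays were tightly grouped and the saline arrays were spread over more than 1 log2 unit in both genotypes. The rise was 3.43 ± 0.26 (10.8-fold, n = 4 per group, limma adjusted p = 1.33e-07) in Astro-D2KO mice. In control mice it was 2.96 ± 0.26 (7.78-fold, limma adjusted p = 5.04e-07).

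Nr4a3, whose other name stands for neuron-derived orphan receptor, stood at 10.42, 10.60, 10.89 and 10.82 in Astro-D2KO SE arrays, against 7.77, 7.46, 8.17 and 7.32 in Astro-D2KO saline arrays. In control mice it stood at 10.94, 10.37, 10.75 and 10.21 in SE arrays, against 7.02, 7.71, 8.12 and 7.94 in saline arrays. The groups lay more than 2 log2 units apart at their nearest arrays. The rise was 3.00 ± 0.22 (8.00-fold, n = 4 per group, limma adjusted p = 9.32e-08) in Astro-D2KO mice. In control mice it was 2.87 ± 0.22 (7.33-fold, limma adjusted p = 1.18e-07).

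**Figure D2:**
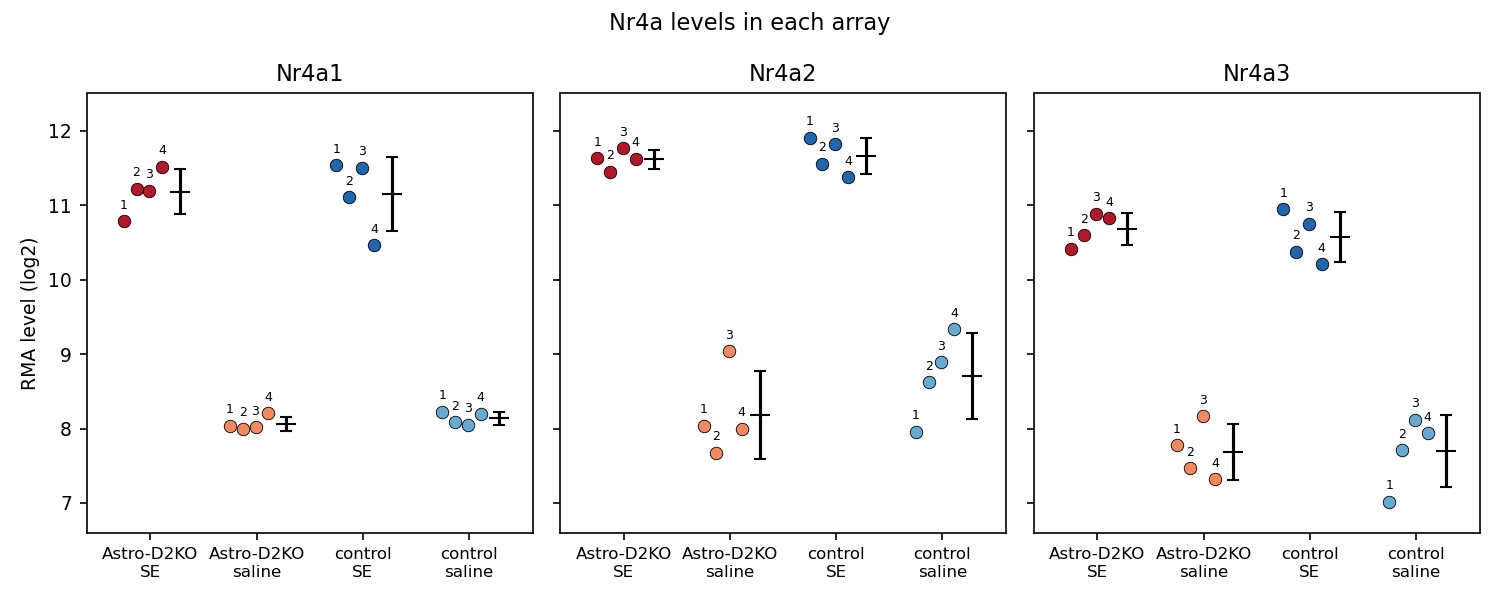
RMA level (log2) of Nr4a1, Nr4a2 and Nr4a3 in each of the 16 arrays; points are arrays with their replicate number, and bars are the group mean ± SD (n = 4). SE arrays lie between 10.21 and 11.90 and saline arrays between 7.02 and 9.34 over the 3 genes.

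Exact permutation tests of 4 arrays against 4 gave p = 0.0286 for all 6 of these rises, which is the smallest value that 70 arrangements allow (two-sided). Complete separation of SE above saline was seen in 9.54% of all genes in Astro-D2KO mice and 8.46% in control mice. By size of rise among the 22180 genes, Nr4a2, Nr4a1 and Nr4a3 ranked 7, 15 and 16 in Astro-D2KO mice. In control mice Nr4a1, Nr4a2 and Nr4a3 ranked 17, 18 and 21. Without the 2 arrays whose Dio2 level stood apart from their group, the rises were 3.25, 3.43 and 3.09 for Nr4a1, Nr4a2 and Nr4a3 in Astro-D2KO mice. They were 3.24, 3.06 and 2.99 in control mice, all called by limma. In whole tissue, more RNA per cell and more cells of a type cannot be told apart.

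No difference between members in the size of the rise was called. The difference between 2 members within an array was compared between SE and saline arrays, giving 3 pairs in each genotype and 6 tests. The largest was that of Nr4a3 against Nr4a2 in Astro-D2KO mice, where the log2 change of Nr4a3 minus that of Nr4a2 was -0.43 ± 0.19 (SE, n = 4 per group, exact permutation p = 0.0857, adjusted p = 0.514). The same difference in control mice was -0.087 ± 0.15 (exact permutation p = 0.571, adjusted p = 0.823). The other 4 differences lay between -0.14 and 0.32, with exact permutation p from 0.4 to 0.857, and none passed. A single one of these 6 tests cannot reach an adjusted p under 0.171 by itself, so they do not show that the members changed alike.

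Across the nuclear receptor superfamily the Nr4a genes stood far above the rest. Of the 42 other nuclear receptors measured out of 46 listed, 3 rose and 3 fell in Astro-D2KO mice, and 4 rose and 5 fell in control mice, by limma with adjustment over all genes. Over all genes 7.49% rose and 12.6% fell in Astro-D2KO mice, and 8.42% rose and 13.7% fell in control mice. The median log2 change of the other receptors was -0.041 in Astro-D2KO mice and -0.036 in control mice, beside -0.0065 and -0.019 over all genes. The receptor next below the Nr4a genes was Rorb, a retinoid-related orphan receptor of the cortex and retina, which rose by 0.92 ± 0.15 (1.90-fold, adjusted p = 0.000269) in Astro-D2KO mice and by 0.81 ± 0.15 (1.75-fold, adjusted p = 0.000710) in control mice. Ppard, a fatty acid sensor, rose by 0.50 in Astro-D2KO mice and by 0.42 in control mice. Nr3c2, the mineralocorticoid receptor that binds corticosterone in hippocampal neurons, fell by 0.51 in Astro-D2KO mice and by 0.53 in control mice. Nr2c2, the testicular orphan receptor TR4, fell by 0.56 in Astro-D2KO mice and by 0.49 in control mice.

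**Figure D3:**
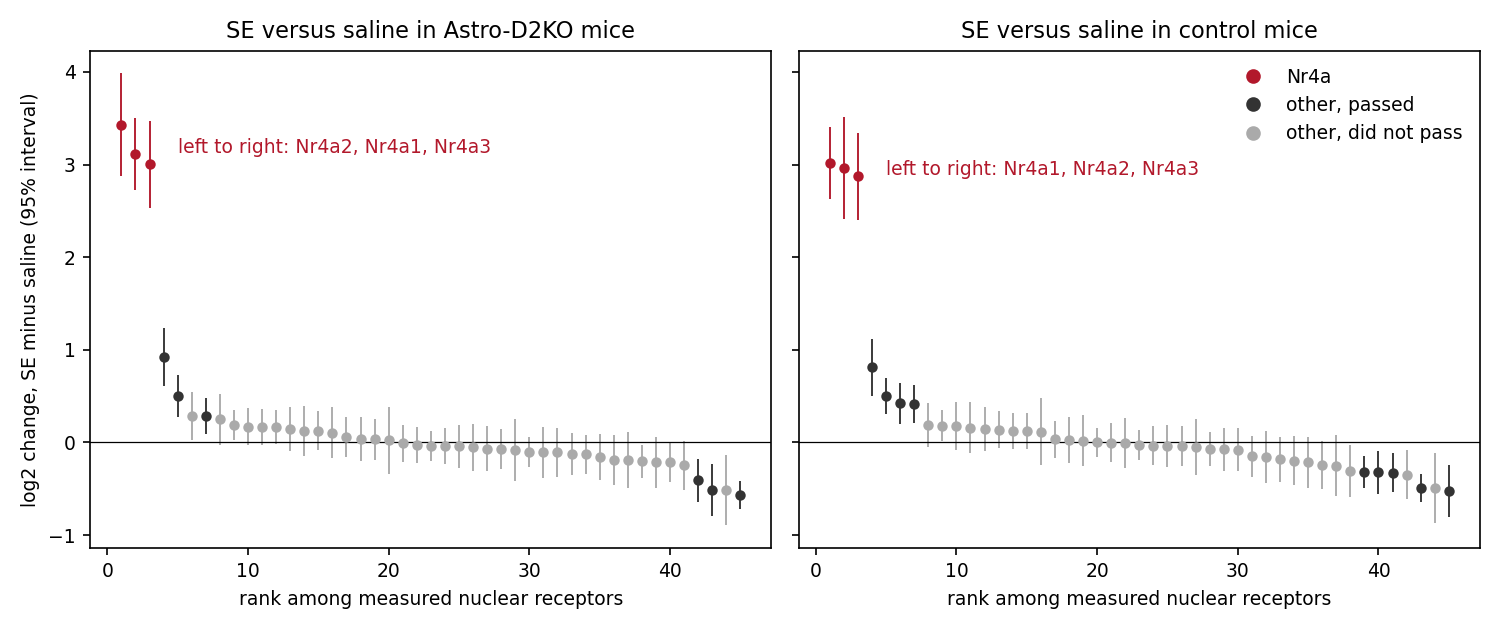
Log2 change after SE (SE minus saline, with the 95% interval of the fit) of 45 nuclear receptors in order of change, with Astro-D2KO mice left and control mice right. The 3 Nr4a genes lie between 2.87 and 3.43, and the next receptor, Rorb, lies at 0.92 in Astro-D2KO mice and 0.81 in control mice.

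The 3 genes whose pattern over the 16 arrays was nearest to each member were found among all genes. Likeness was the root mean square difference between the 2 genes' log2 deviations from their own 16-array means, so it is smallest for genes with equal rises and equal ups and downs. Nr4a1 was nearest to Egr1, a zinc finger transcription factor of the immediate early class (0.21), then to its relative Egr4 (0.29) and to Pcsk1, a protease that processes prohormones (0.29). Nr4a2 was nearest to Nr4a3 (0.30), then to Pcsk1 (0.35) and Egr1 (0.41). Nr4a3 was nearest to Nr4a2 (0.30), then to Thbs1, a secreted matrix glycoprotein (0.33), and Nr4a1 (0.34). The median gene differed by 1.51 to 1.66 from the members, a value set largely by the size of their rises.

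Other genes switched on by firing rose beside the Nr4a family. Of 14 activity genes, chosen with earlier results of these data known, 14 rose in Astro-D2KO mice (median log2 change 2.47) and 14 rose in control mice (median 2.83). Over all genes 7.49% were called higher in Astro-D2KO mice and 8.42% in control mice. Npas4, a neuronal transcription factor, led with 4.78 in Astro-D2KO mice and 4.97 in control mice. Fosb and Fos, subunits of AP-1, followed with 4.13 and 3.76 in Astro-D2KO mice and with 4.58 and 3.87 in control mice. Egr1 rose by 3.12 in Astro-D2KO mice and by 3.29 in control mice, so the Nr4a rises fell within the range of this list.

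Upstream of Nr4a transcription the changes were smaller and went both ways. Of 31 measured genes of the CREB, MEF2 and SRF routes, out of 38 listed, 5 rose and 6 fell in Astro-D2KO mice, and 5 rose and 6 fell in control mice. The share called was 35.5% in each genotype, against 20.1% of all genes in Astro-D2KO mice and 22.1% in control mice. The median log2 change was -0.13 in Astro-D2KO mice and -0.042 in control mice. Crem, whose inducible products repress CRE-driven genes, rose by 0.99 in Astro-D2KO mice and by 1.01 in control mice. Rps6ka3, a kinase of the ERK pathway that phosphorylates CREB, rose by 0.96 in Astro-D2KO mice and by 1.20 in control mice. Elk1, a partner of SRF, fell by 0.69 in Astro-D2KO mice and by 0.77 in control mice, and Rps6ka5, a kinase of CREB and histone H3, fell by 0.62 in Astro-D2KO mice and by 0.48 in control mice.

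Partners of the Nr4a proteins changed in both directions. Of 14 measured partners and cofactors, out of 17 listed, 2 rose and 3 fell in Astro-D2KO mice, and 3 rose and 3 fell in control mice, with median log2 changes of -0.027 in Astro-D2KO mice and -0.16 in control mice. The share called was 35.7% in Astro-D2KO mice, where it was 20.1% over all genes, and 42.9% in control mice, where it was 22.1% over all genes. Xpo1, the nuclear exporter, rose by 0.66 in Astro-D2KO mice and by 0.64 in control mice. Bcl2, an inhibitor of cell death that Nr4a1 can bind at mitochondria, rose by 0.26 in Astro-D2KO mice and by 0.40 in control mice. Ncoa1, a steroid receptor coactivator, fell by 0.32 in Astro-D2KO mice and by 0.31 in control mice.

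Reported targets of Nr4a proteins rose in part. Of 17 measured targets, out of 18 listed from studies in several tissues, 7 rose and 0 fell in Astro-D2KO mice, and 8 rose and 0 fell in control mice. The share called higher was 41.2% in Astro-D2KO mice, against 7.49% of all genes, and 47.1% in control mice, against 8.42% of all genes. The median log2 change was 0.22 in Astro-D2KO mice and 0.18 in control mice. This list, like the upstream and partner lists, was chosen with earlier results of these data known. The part of Nr4a proteins in these rises was not tested. Bdnf, a neurotrophin that is also a direct target of CREB, rose by 2.02 in Astro-D2KO mice and by 2.01 in control mice. Hspa5, the main chaperone of the endoplasmic reticulum, rose by 0.93 in Astro-D2KO mice and by 1.13 in control mice. Nrp1, a receptor for semaphorins, rose by 0.79 in Astro-D2KO mice and by 0.92 in control mice, and Sdf2l1, a chaperone cofactor, rose by 0.76 in both genotypes.

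Some cell type markers shifted with SE as well, where over all genes 7.49% rose and 12.6% fell in Astro-D2KO mice and 8.42% rose and 13.7% fell in control mice. Of 5 dentate granule cell markers, 0 rose and 2 fell in Astro-D2KO mice, and 0 rose and 3 fell in control mice. Their list means ran from 7.54 to 7.56 in Astro-D2KO SE arrays, against 7.55 to 8.54 in Astro-D2KO saline arrays. In control mice they ran from 7.07 to 7.81 in SE arrays, against 8.00 to 8.62 in saline arrays. Of 5 endothelial markers, 3 rose in each genotype, and of 5 microglia markers 2 fell in each. Among the endothelial markers Cdh5 rose most, by 1.41 in each genotype, and Cldn5 was not called. Tek was lower by 0.40 in Astro-D2KO mice and by 0.33 in control mice, also not called. The endothelial list means ran from 7.48 to 7.77 in Astro-D2KO SE arrays, against 7.12 to 7.31 in Astro-D2KO saline arrays, and from 7.57 to 7.81 in control SE arrays, against 7.01 to 7.43 in control saline arrays. The microglia list means ran from 6.82 to 7.15 in Astro-D2KO SE arrays, against 7.34 to 7.51 in Astro-D2KO saline arrays, and from 6.85 to 7.17 in control SE arrays, against 7.28 to 7.48 in control saline arrays. Of 7 pan-neuronal markers, 2 rose and 1 fell in Astro-D2KO mice, and 1 rose and 1 fell in control mice. Nefl, a neurofilament subunit, rose by 0.77 in Astro-D2KO mice and by 0.86 in control mice, Map2 rose by 0.22 in Astro-D2KO mice, and Rbfox3, the NeuN antigen, fell by 0.25 in Astro-D2KO mice and by 0.29 in control mice. The mean of these 7 lay between 10.96 and 11.10 in all 16 arrays. Of 7 astrocyte markers, 1 rose in each genotype, Sox9, by 0.59 in Astro-D2KO mice and by 0.58 in control mice. Slc1a2 fell by 0.26 in control mice. Of 6 thalamus and habenula markers, 1 rose and 1 fell in Astro-D2KO mice, and 1 rose in control mice. Of 6 markers of CA2 and CA3 pyramidal cells, 0 were called in Astro-D2KO mice and 1 fell in control mice. Of 8 markers of subiculum and deep cortex, 2 rose in each genotype. Nts, the neurotensin gene, rose by 3.20 in Astro-D2KO mice and by 2.64 in control mice, Ccn2 rose by 0.50 in Astro-D2KO mice and Tle4 by 0.49 in control mice. The means of that list ran from 7.40 to 7.60 in Astro-D2KO SE arrays, against 6.82 to 7.17 in Astro-D2KO saline arrays, and from 7.31 to 7.48 in control SE arrays, against 6.90 to 7.09 in control saline arrays. These means carry the large rise of Nts. The median log2 change of the 8 markers was 0.062 in Astro-D2KO mice and 0.11 in control mice. Foxp2 and Fn1 were lower after SE in both genotypes, though not called. Of 5 oligodendrocyte markers, 2 fell in Astro-D2KO mice (Mag by 0.44 and Mbp by 0.31) and 0 in control mice; the difference between genotypes was not called for any gene. No marker was at 0, since RMA values have no zero, and the part of these shifts in the Nr4a rises was not tested.

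Loss of Dio2 in astrocytes did not alter any Nr4a gene at a level that passed the test. Limma called 0 of 3 members between the genotypes after SE, under saline or in the size of the SE response, and it called 0% of all 22180 genes in each of those comparisons. At an unadjusted p under 0.05 there were 1358 genes after SE, 885 under saline and 1031 in the response. Dio2 itself had adjusted p = 0.532 after SE and 0.999 under saline in this fit, so missing the threshold does not show that a gene was alike in both genotypes.

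After SE the levels of the genotypes overlapped for each member; over all genes, all Astro-D2KO arrays lay above all control arrays in 1.53% and below in 1.4%. Nr4a1 averaged 11.18 ± 0.30 in Astro-D2KO SE arrays and 11.15 ± 0.50 in control SE arrays (SD, n = 4 each). The difference was 0.028 with a 95% interval from -0.36 to 0.42. Nr4a2 averaged 11.62 ± 0.13 in Astro-D2KO SE arrays and 11.66 ± 0.24 in control SE arrays, a difference of -0.046 (95% interval -0.60 to 0.51). Nr4a3 averaged 10.68 ± 0.22 in Astro-D2KO SE arrays and 10.57 ± 0.34 in control SE arrays, a difference of 0.11 (-0.36 to 0.58). Each difference was smaller than the SD within either group, and limma's adjusted p was between 0.956 and 0.986. Without Astro-D2KO SE replicate 1 the differences were 0.16 for Nr4a1, -0.050 for Nr4a2 and 0.20 for Nr4a3. Without control SE replicate 4 as well they were -0.070 for Nr4a1, -0.15 for Nr4a2 and 0.080 for Nr4a3, so the sign for Nr4a1 turned.

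Under saline the genotypes overlapped for each member as well, and over all genes all Astro-D2KO arrays lay above all control arrays in 1.27% and below in 1.34%. Nr4a2 had the widest gap between genotypes of the 3 genes. It averaged 8.18 ± 0.59 in Astro-D2KO saline arrays and 8.70 ± 0.58 in control saline arrays, a difference of -0.52 (95% interval -1.07 to 0.035), which neither limma (unadjusted p = 0.0647, adjusted p = 0.999) nor the exact permutation test (p = 0.314) called. By size alone it ranked 22168 of 22180, among the most negative differences of all genes, and leaving out single arrays moved it between -0.80 and -0.31. Nr4a1 averaged 8.06 ± 0.094 in Astro-D2KO saline arrays and 8.14 ± 0.087 in control saline arrays, a difference of -0.075 (-0.46 to 0.31). Nr4a3 averaged 7.68 ± 0.38 in Astro-D2KO saline arrays and 7.70 ± 0.48 in control saline arrays, a difference of -0.016 (-0.48 to 0.45).

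The SE response was not called different between genotypes for any member. The change in Astro-D2KO mice less the change in control mice was 0.10 ± 0.26 for Nr4a1 (95% interval -0.45 to 0.65), 0.47 ± 0.37 for Nr4a2 (-0.31 to 1.25) and 0.13 ± 0.31 for Nr4a3 (-0.53 to 0.79), each with limma adjusted p = 0.998. For Nr4a2 it is the difference after SE, -0.046, less the difference under saline, -0.52. Among the 14 activity genes the same quantity was negative for 14, with a median of -0.22 and 0 called, and it was negative for 14 with a median of -0.40 without the 2 arrays. Over all genes the median was 0.0049, and the smallest limma adjusted p of any gene was 0.971. The 14 activity genes were read in the same arrays, so their shared sign is not 14 separate results, and it was not tested.

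**Figure D4:**
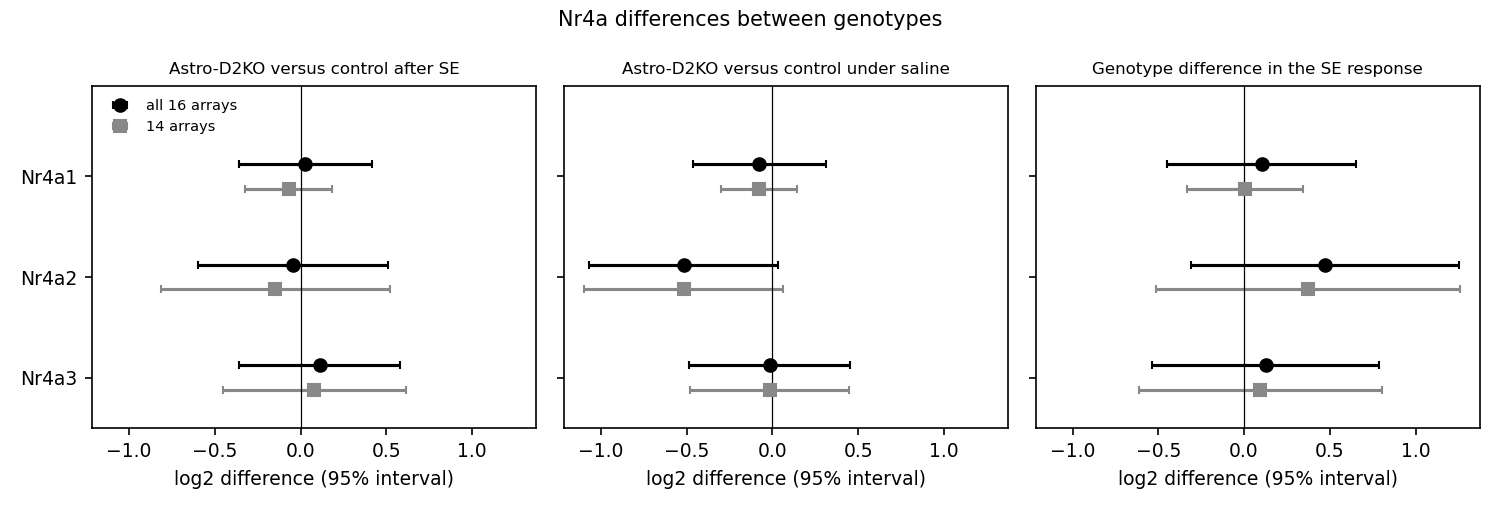
Log2 differences between genotypes (Astro-D2KO minus control) with 95% intervals of the fit for the 3 Nr4a genes after SE, under saline and in the SE response. Black circles use all 16 arrays and grey squares 14 arrays, without the 2 whose Dio2 level stood apart from their group; all 18 intervals include 0.

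The members differed in how they varied from mouse to mouse. Among the 8 saline arrays, Nr4a2 had an SD of 0.61, rank 85 of 22180 genes, and Nr4a3 had 0.40, rank 353, beside a median gene of 0.14. Nr4a1 had 0.093, rank 18209, so it was steadier than the median gene. Among the 8 SE arrays the order was turned, with SDs of 0.38 for Nr4a1, 0.27 for Nr4a3 and 0.18 for Nr4a2, beside a median gene of 0.15. This order changed without both control SE replicate 4 and Astro-D2KO SE replicate 1. The SDs over the other 6 arrays were 0.19 for Nr4a1, 0.21 for Nr4a3 and 0.17 for Nr4a2. Without Astro-D2KO SE replicate 1 alone they were 0.38, 0.28 and 0.20, and the order held. Leaving out control SE replicate 4 alone was not tried for these SDs. No test was made of these spreads, and leaving out these arrays was chosen after the data were seen.

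Among SE arrays 1 of the 3 pairs of members had a correlation that passed after adjustment. Over the 8 SE arrays Nr4a3 and Nr4a1 had Pearson's r = 0.866 (exact permutation p = 0.00466, adjusted p = 0.0280 over 6 relations) and Spearman's rho = 0.833 (exact permutation p = 0.0154, adjusted p = 0.0461). Without the 2 arrays farthest from the median Nr4a3 level r was 0.798, and as deviations from each genotype's mean it was 0.880. Nr4a3 and Nr4a2 had r = 0.805 (exact permutation p = 0.0201, adjusted p = 0.0518) and rho = 0.786 (exact permutation p = 0.0279, adjusted p = 0.0559). Nr4a2 and Nr4a1 had r = 0.702 (exact permutation p = 0.0523, adjusted p = 0.0785) and rho = 0.619 (exact permutation p = 0.115, adjusted p = 0.172). Without the 2 farthest arrays these were r = 0.646 and r = 0.304, so the second rested on those arrays. Without both arrays whose Dio2 level stood apart, r over the other 6 was 0.674 for Nr4a3 and Nr4a1, 0.734 for Nr4a3 and Nr4a2 and 0.608 for Nr4a2 and Nr4a1. The array labelled control SE replicate 4 was lowest of the 8 for each gene, and its Npas4 level, 8.96, was also the lowest of the SE arrays.

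Under saline, Nr4a2 and Nr4a3 were high or low in nearly the same mice, whereas Nr4a1 was not. The saline arrays fell into a lower set and a higher set by Nr4a2 level, with none between 8.04 and 8.62, so no pooled correlation with Nr4a2 is given. Such correlations were nevertheless among the 6 relations adjusted, and they served to pick genes under Other observations. Over the 8 saline arrays Nr4a3 and Nr4a1 had r = -0.542 (exact permutation p = 0.166, adjusted p = 0.200) and rho = -0.524 (exact permutation p = 0.197, adjusted p = 0.236). Nr4a2 and Nr4a3 were both high in Astro-D2KO saline replicate 3 and in control saline replicates 3 and 4. Nr4a3 in Astro-D2KO saline replicate 1 (7.77) stood slightly above control saline replicate 2 (7.71), although Nr4a2 was lower there (8.04 against 8.62).

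Dbp was high in the same saline mice as Nr4a2. Dbp, a PAR bZIP transcription factor whose RNA follows time of day and which was picked after its values were seen, stood at 8.07, 8.34, 9.16 and 8.07 in Astro-D2KO saline arrays, against 7.88, 9.03, 9.09 and 9.27 in control saline arrays. The 4 arrays with Dbp at or above 9.03 were the same 4 arrays with Nr4a2 at or above 8.62. Dbp differed by -0.41 ± 0.28 between the genotypes under saline (limma adjusted p = 0.999), in the same direction as Nr4a2. With SE the 2 genes went opposite ways. Dbp fell by 0.96 in Astro-D2KO mice (limma adjusted p = 0.0219) and by 1.18 in control mice (limma adjusted p = 0.00549), whereas Nr4a2 rose. The mean of the choroid plexus list was highest in Astro-D2KO saline replicate 3 (7.86) and control saline replicate 3 (8.38), which both had high Nr4a2 and Nr4a3. The part of either in the saline levels of Nr4a2 and Nr4a3 was not tested.

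**Figure D5:**
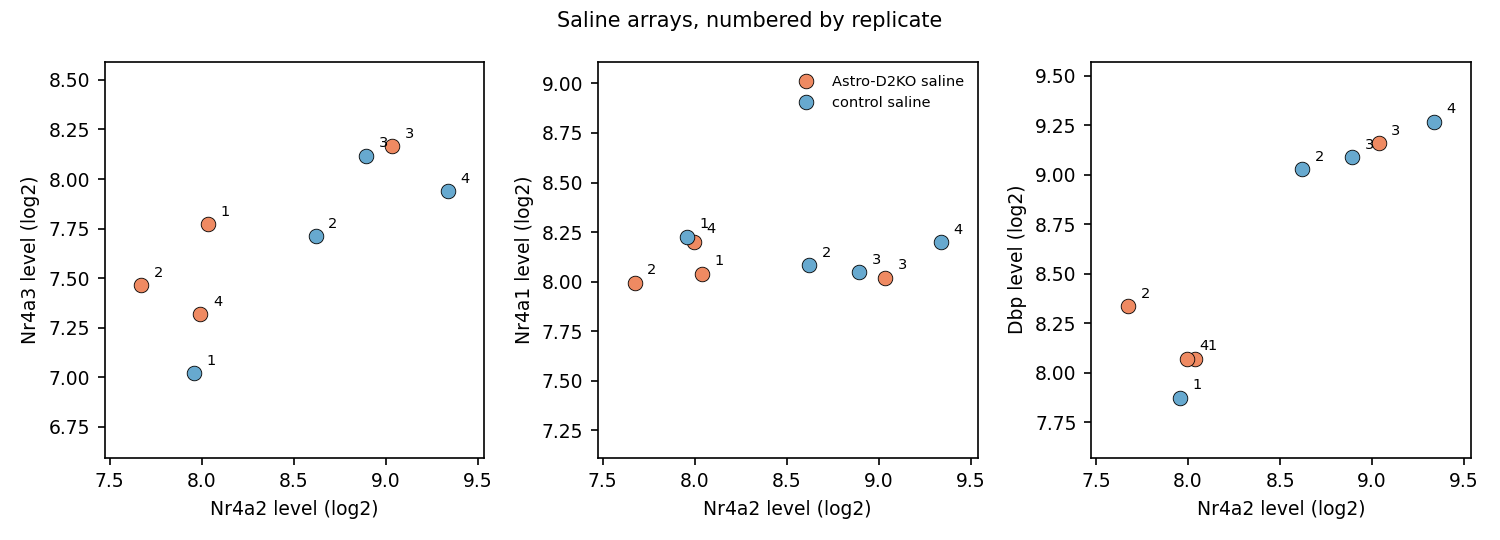
Levels (log2) in the 8 saline arrays, numbered by replicate within genotype, with Nr4a2 on each x axis and Nr4a3, Nr4a1 or Dbp on the y axes, which all span 2 log2 units. Nr4a2 runs from 7.67 to 9.34 with Nr4a3 and Dbp higher at its upper end, while Nr4a1 stays between 7.99 and 8.23.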

How the data were processed

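RNA of 16 mouse hippocampi was measured on Affymetrix arrays. The authors deposited one table of RMA values, per the submitters' processing notes; the log base is not given. The deposited values were read as log2 because they run from 1.70 to 13.8, and the authors made them by RMA per the submitters' processing notes. Precision is limited by the number of arrays. Replicates are mice of one group per the labels, and no batch is named there.

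Of 41345 probe sets, 23521 had 1 symbol in the platform annotation, 1814 several and 16010 none. Each of 22180 genes was read from its brightest probe set by 16-array mean, with no filter on level. Limma 3.58.1 in R 4.3.3 fitted 4 group means with empirical Bayes, two-sided, and p-values were adjusted over all genes in each contrast. The fit was tested on simulated data. Exact permutation tests (Python 3.11.15) were two-sided. All 3 members were named in each contrast. For each, the 3 genes nearest over the 16 arrays were named, and for each list up to 4 genes with the largest changes among those called in both genotypes. Members, lists and tests were chosen with earlier results of these data known. Alternatives changed the normalisation, level filter, probe set, fit, weights, block and arrays used.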

Additional observations from a re-analysis of the deposited data

How the results depend on the processing

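The 6 rises of Nr4a genes after SE kept their direction and passed limma under all 25 alternatives, 150 values from 2.65 to 3.72 (log2) with adjusted p of at most 2.12e-05. No genotype comparison of a member passed under any alternative. Their signs were less stable. For Astro-D2KO against control after SE, Nr4a1 was -0.062 with array weights and -0.070 without both arrays whose Dio2 level stood apart from their group, and its response difference was -0.0057 with array weights. Leaving out 1 array at a time, the difference after SE ranged from -0.20 to 0.16 for Nr4a1, from -0.14 to 0.035 for Nr4a2 and from -0.0083 to 0.24 for Nr4a3. The saline difference of Nr4a3 ranged from -0.24 to 0.12. The response difference ranged from -0.13 to 0.24 for Nr4a1 and from -0.013 to 0.35 for Nr4a3. Between members, Nr4a3 minus Nr4a1 ranged from -0.28 to 0.062 in Astro-D2KO mice and from -0.39 to 0.032 in control mice, and Nr4a2 minus Nr4a1 from -0.33 to 0.14 in control mice. The cause of these turns was not tested.

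Over all genes, without both arrays limma called 5 genes after SE (Cip2a, Dio2, Fa2h, Pcna and Serpinb2), 1 under saline (Dio2) and 1 in the response (Serpinb2). With only the 2 groups compared it called 1 under saline, Dio2. Without 1 array it called from 0 to 2 after SE: Fa2h and Serpinb2 without the array labelled control SE replicate 4, and Dio2 without the array labelled Astro-D2KO SE replicate 1. These genes were named after their values were seen. Same-numbered arrays of the groups compared had correlations of deviations from -0.29 to 0.34. The highest was between Astro-D2KO saline and control saline arrays. There 2 of 4 Astro-D2KO arrays correlated best with the control array of the same number, against 0 of 4 in each other comparison. Whether the numbers pair the mice was not tested. With the replicate number as a block, limma called 4109 genes in Astro-D2KO mice and 4576 in control mice after SE (4459 and 4907 without it), 0 between genotypes, and no Nr4a call changed; the rises stayed 3.12, 3.43 and 3.00 in Astro-D2KO mice and 3.01, 2.96 and 2.87 in control mice. With 4 arrays per group, the 95% interval for Nr4a2 under saline reaches -1.07.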

Other observations

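Beyond the clock gene Dbp, other genes tracked the level of Nr4a2 among the 8 saline arrays. They were picked after their values were seen and are given as a description with no test. Sez6l2 and Tll1 had the highest and the lowest correlation with Nr4a2 among genes with an SD of at least 0.3 over these arrays. Npy and, further below, Tef and Per3 were picked by name and not by that ranking, as was Dbp. Sez6l2, a neuronal membrane protein gene, stood at 9.68, 9.41, 10.16 and 9.61 in Astro-D2KO saline arrays (replicates 1 to 4), against 9.36, 9.88, 10.18 and 10.38 in control saline arrays. Like Nr4a2, it was highest in control saline replicate 4. Tll1, a tolloid-like metalloprotease gene, ran the other way, with 7.31, 7.22, 6.11 and 7.29 in Astro-D2KO saline arrays, against 7.14, 6.53, 6.12 and 5.82 in control saline arrays. Npy, the neuropeptide Y gene of interneurons, stood at 10.06, 10.30, 8.84 and 9.75 in Astro-D2KO saline arrays, against 10.26, 9.48, 8.79 and 8.86 in control saline arrays, so it too was low where Nr4a2 was high.

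The PAR bZIP gene Tef stood at 6.67, 6.78, 7.35 and 6.67 in Astro-D2KO saline arrays, against 6.78, 6.93, 7.41 and 7.46 in control saline arrays. The clock gene Per3 stood at 6.98, 7.18, 7.88 and 7.27 in Astro-D2KO saline arrays, against 7.04, 7.35, 7.91 and 7.85 in control saline arrays. Both were highest in the 3 mice with the highest Nr4a2. The hour of dissection was not given in the sources.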
